A study of Mus musculus with 10 samples.

Results

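Gli2 chromatin immunoprecipitation signal at day 4 of a neural reprogramming course was set against day 0 over all 1577 loci of the deposited Elk1 and Gli2 table. No locus was left out, so 1577 of 1577 entered the comparison. There was 1 library on each side, 2 of the 10 libraries of the series, and therefore no test and no p-value. A locus was counted as lower or higher where log2(signal + 1) differed by at least 2-fold, and as kept otherwise. Each locus was assigned to 1 type. It was a tRNA gene locus with a nuclear tRNA gene within 1 kb (208 loci), and otherwise an other small RNA gene locus with such a gene within 1 kb (42 loci). The remaining loci were coding gene loci with a protein-coding gene overlapping or within 5 kb (538 loci) or intergenic (788 loci). 1 mitochondrial locus was counted apart.

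Gli2 is a zinc finger transcription factor that carries Hedgehog signals from the primary cilium to the nucleus. When a Hedgehog ligand is bound by the receptor Ptch1, the membrane protein Smo is released from inhibition, and full-length Gli proteins reach target genes such as Gli1 and Ptch1. Transfer RNA genes are transcribed by RNA polymerase III from promoter elements inside the gene, the A box and the B box, which are read by the factor TFIIIC. 7SK, Y, vault and RNase MRP RNA genes are also polymerase III genes, but most spliceosomal snRNA genes and the U3 snoRNA genes are transcribed by RNA polymerase II.

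The cells were fibroblasts that the labels call tdMEFs, a name that is not spelled out there. At day 0 they were in serum-containing MEF medium. By day 4 they had been in M9, a neural medium with N2 and B27 supplements at low oxygen. M9 contained bFGF and 8 small molecules, namely Hh-Ag1.5 (a Smo agonist), CHIR99021, LDN193189, A83-01, retinoic acid, SMER28, RG108 and Parnate. Both days were immunoprecipitated with the same lot of an Abcam Gli2 antibody from formaldehyde-crosslinked chromatin. Medium, oxygen and time changed together between the days, and their parts cannot be told apart. The series text writes ciNSLC beside day 0, whereas the sample labels keep them separate, and the labels were followed. Gli2 signals of the day 8, ciNSLCs (reprogrammed cells) and pri-NPC libraries are given beside the pair, 1 library each. The labels give no day for pri-NPC, which is set beside the course here and is not taken as a later point of it. In bulk chromatin, fewer cells with an occupied site and less occupancy per cell cannot be told apart.

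Total read depth is unknown. The low signals of each library lay on a grid, so that 1 counted unit was worth 11.94 at day 0 and 7.52 at day 4. A signal of 100 therefore took 9 units at day 0 and 14 at day 4. Intervals of the day 4 to day 0 ratio are 95% exact conditional binomial intervals from these units. They cover counting error only, since PCR copies were not separated by molecular identifiers and no biological replicate exists. They were not adjusted for the number of loci. The loci had been listed because some library reached about 100, the lowest maximum being 100.1, and 357 loci reached 100 with Gli2 at day 0 alone against 7 with Gli2 at day 4 alone. A locus listed through day 0 alone starts high by selection. The counts by type were therefore repeated over the 1207 loci at 100 or more in one of the 8 remaining libraries, here called listed elsewhere.

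Sequences are shown for tRNA genes at 6 loci, because tRNA genes were the type with the most uniform difference. They were cut from RefSeq promoter windows or a miRNA hairpin (GRCm38.p6, the same build as mm10), and are printed 5′ to 3′ with the B box, found by the letters GTTCNANNC, in capitals. The annotation used gives no strand for tRNA genes, so the direction was set by the B box lying in the 3′ part of the gene. The genes are n-TTagt9 (threonine, chr7:35234770-35234843, minus strand), n-TRtcg5 (arginine, chr7:79466419-79466491, plus strand), n-TAagc16 (alanine, chr13:21222586-21222657, plus strand), n-TVcac9 (valine, chr13:23446142-23446214, minus strand) and n-TItat14 (isoleucine, chr13:21896938-21897031, minus strand). The last sequence is the Polr3e promoter window (chr7:120917528-120917827, plus strand), which begins inside the leucine tRNA gene n-TLaag4.
n-TTagt9: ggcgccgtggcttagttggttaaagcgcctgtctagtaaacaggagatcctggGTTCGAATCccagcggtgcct
n-TRtcg5: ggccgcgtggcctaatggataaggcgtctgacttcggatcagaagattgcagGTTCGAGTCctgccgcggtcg
n-TAagc16: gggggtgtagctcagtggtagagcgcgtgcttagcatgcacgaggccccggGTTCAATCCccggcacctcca
n-TVcac9: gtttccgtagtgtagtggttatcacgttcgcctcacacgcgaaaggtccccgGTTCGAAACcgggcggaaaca
n-TItat14: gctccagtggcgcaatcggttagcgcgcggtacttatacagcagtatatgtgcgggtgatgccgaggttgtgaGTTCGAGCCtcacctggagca
Polr3e promoter: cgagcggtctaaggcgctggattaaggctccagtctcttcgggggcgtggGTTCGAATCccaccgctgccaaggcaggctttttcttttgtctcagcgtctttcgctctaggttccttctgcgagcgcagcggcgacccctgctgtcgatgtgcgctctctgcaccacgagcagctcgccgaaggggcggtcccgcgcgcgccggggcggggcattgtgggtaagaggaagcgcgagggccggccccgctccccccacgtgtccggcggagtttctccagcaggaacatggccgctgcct

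At the locus over n-TTagt9, Gli2 signal was 238.9 (day 0), 52.6 (day 4), 75.3 (day 8), 186.8 (ciNSLCs) and 177.3 (pri-NPC). Over n-TRtcg5 it was 227, 104.4, 122.2, 280.6 and 207.3 in the same order, and over n-TAagc16 it was 269.9, 37.6, 69.4, 134.9 and 83.4. Over n-TVcac9 it was 218.6, 97.7, 68.3, 200.2 and 131. All 4 loci had less signal at day 4 than at day 0, and more in ciNSLCs than at day 4. At n-TItat14, whose gene carries an intron, the signals were 394.2, 37.6, 32.5, 41.3 and 101, so that ciNSLCs also stayed low there.

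The locus over the Polr3e promoter held 286.7 (day 0), 67.7 (day 4), 29.9 (day 8), 86.4 (ciNSLCs) and 37.8 (pri-NPC). Polr3e encodes a subunit of RNA polymerase III itself. The ratio of day 4 to day 0 was 0.24, with a counting interval of 0.1 to 0.53. This locus was listed through Gli2 at day 0 alone, so its starting value is high by selection, and the tRNA gene and the promoter cannot be told apart within it.

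Over all loci, Gli2 signal was more often lower than higher at day 4. Of 1577 loci, 854 (54.2%) were lower, 453 were kept and 270 (17.1%) were higher. Beyond counting error, meaning at least 2-fold and with an interval that left out 1, 510 (32.3%) were lower and 9 (0.571%) were higher. The median signal was 35.8 at day 0 and 15 at day 4. The median log2 difference was -1.22, with quartiles of -2.51 and 0.31. Scaling both libraries to the same median signal over all 1577 loci moves differences by up to 1.25 on the log2 scale. The shift is less at low signals, where the pseudocount weighs more. The 357 loci at 100 with Gli2 at day 0 alone raise the day 0 median and so enlarge this shift. The scaling draws the numbers of lower and higher loci together by construction, and the split then becomes 485 lower and 507 higher. Kept loci with a small negative difference, among them those named below, lie above day 0 under that scaling.

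Over the 1207 loci listed elsewhere the split was more even, but 884 of them reached 100 with Elk1 alone and carried little Gli2 signal. Of the 1207, 504 (41.8%) were lower, 436 were kept and 267 (22.1%) were higher, with 206 (17.1%) lower and 6 (0.497%) higher beyond counting error. The median log2 difference was -0.64. With both libraries scaled to the same median over all 1577 loci, 226 were lower and 497 higher. The medians of the 1207 loci themselves were 19 at day 0 and 15 at day 4. That scaling therefore moves them past equal medians and favours higher calls here. Of the 288 loci that reached 100 in another Gli2 library, 204 (70.8%) were lower and 13 (4.51%) higher, and 152 of these 288 were tRNA gene loci. The 136 that were not had 59 (43.4%) lower, 64 kept and 13 (9.56%) higher. Of the 357 loci listed through Gli2 at day 0 alone, 349 were lower at day 4, a direction that their listing favours. At day 0, 229 loci of the table stood at exactly 9 units, the smallest number that reaches 100.

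The number of loci at 100 partly restates the listing. Gli2 reached 100 at 628 loci at day 0 and at 142 at day 4. Both days reached it at 122 loci, of which 66 were lower and 56 kept. Day 0 alone of the pair reached it at 506 loci, day 4 alone of the pair at 20, and neither at 929. Over the loci listed elsewhere, 265 were at 100 at day 0 and 129 at day 4, with 149 at day 0 but not day 4 and 13 at day 4 but not day 0. The 2-fold limit divided close neighbours. Just inside it, n-TRccg2 went from 194.7 to 96.8 and a locus near BC035044 from 167.2 to 82.7. Just outside it, a locus in Mroh2a went from 102.7 to 51.3 and the Malat1 locus from 97.8 to 195.5.

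**Figure D1:**
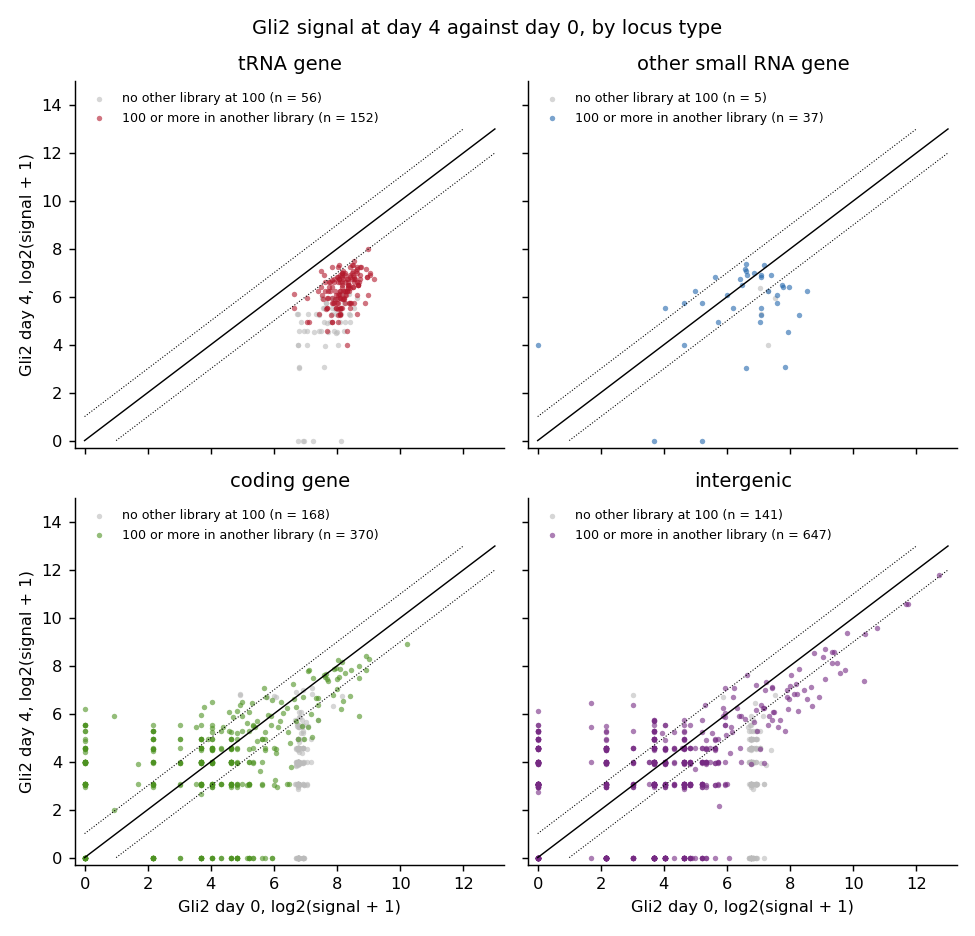
Gli2 log2(signal + 1) at day 4 (vertical) against day 0 (horizontal), 1 point a locus, in 4 panels by locus type; coloured points were at 100 or more in another library and grey points did not, the solid line marks equal signal and the dotted lines 2-fold. All 208 tRNA gene loci lie below the solid line, whereas coding gene and intergenic loci lie on both sides of it; the column of grey points near 100 at day 0 holds loci listed through day 0 alone.

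The plot of day 4 against day 0 by type shows that the tRNA gene loci formed a compact cloud at high day 0 signal. The coding gene and intergenic loci were spread from 0 upwards. At the highest values some lay less than 2-fold below the line of equal signal. Others lay far below it, such as an intergenic locus near Ly6c2 that went from 1295.9 to 162.2.

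Of the 208 tRNA gene loci, 201 (96.6%) were lower at day 4, 7 were kept and none was higher. Over all loci, 54.2% were lower. Beyond counting error, 194 of the 208 were lower. At day 0, 206 of the 208 were at 100. Of all 648 loci at 100 with Gli2 at day 0 or day 4, tRNA gene loci included, 557 (86%) were lower. The median Gli2 signal of the tRNA gene loci was 269.9 at day 0 and 60.2 at day 4. Their median log2 difference was -2.05, with quartiles of -2.64 and -1.54. Among the 152 listed elsewhere, 145 (95.4%) were lower, with medians of 285.4 and 82.5 and a median log2 difference of -1.89. Relative to the overall median the tRNA gene loci remained lower, by a median of -0.82, but the number lower by 2-fold was then 77 of 208. Scaled on the 96 loci that reached 100 with both antibodies, the median was -1.29. Of these 96, 85 were at 100 with Gli2 at day 0 and 65 at day 4. This reference was therefore also chosen partly on the pair compared.

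The other 3 types were mixed, and the sign of their medians depended on the scaling. Of the 42 other small RNA gene loci, 20 (47.6%) were lower, 17 kept and 5 higher, and 15 and 0 were lower and higher beyond counting error. Their median log2 difference was -0.73 as deposited and turned to 0.5 with equal medians and to 0.03 when scaled on the loci of both antibodies. Of the 538 coding gene loci, 265 (49.3%) were lower, 178 kept and 95 higher, and 151 and 5 were so beyond counting error. Their median of -0.96 turned to 0.03 with equal medians. Of the 788 intergenic loci, 367 (46.6%) were lower, 251 kept and 170 higher, 149 and 4 beyond counting error. Their median of -0.77 turned to 0.18 with equal medians.

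Restricting to loci listed elsewhere changed the types unequally. Among 370 coding gene loci so listed, 111 (30%) were lower, 166 kept and 93 higher, and the median log2 difference was -0.04 instead of -0.96. Among 647 intergenic loci, 231 (35.7%) were lower, 247 kept and 169 higher, with a median of -0.28 instead of -0.77. Among 37 other small RNA gene loci, 16 were lower, 16 kept and 5 higher, with a median of -0.64. Loci listed through Gli2 at day 0 alone made up 56 of the tRNA gene loci (26.9%), 5 of the other small RNA gene loci (11.9%), 158 of the coding gene loci (29.4%) and 138 of the intergenic loci (17.5%).

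**Figure D2:**
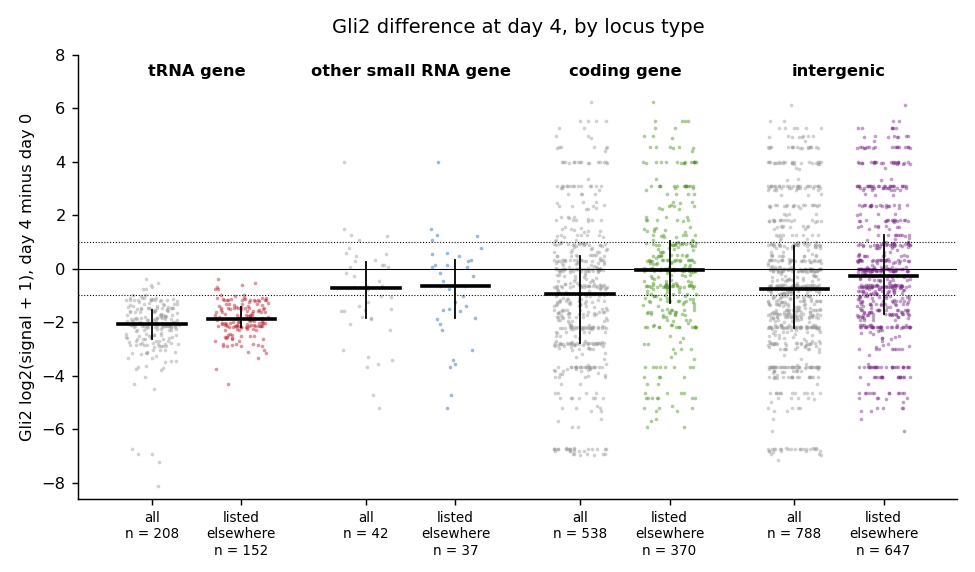
Difference of Gli2 log2(signal + 1), day 4 minus day 0, 1 point a locus, for each type over all its loci (grey) and over those that were at 100 or more in another library (coloured); thick bars are medians, thin bars span the quartiles and dotted lines mark 2-fold. The tRNA gene median stays near -2 in both sets (-2.05 and -1.89), whereas the coding gene median goes from -0.96 to -0.04.

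The plot of differences by type also shows horizontal bands at the coding gene and intergenic loci. They come from signals of a few counted units, where a step of 1 unit is a large change on the log2 scale.

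At the tRNA gene loci, day 4 was below day 0 at all 208. Day 0 signals ranged from 99.1 to 573.4 and day 4 signals from 0 to 255.7. In counted units the median went from 23 to 8. Across the 208 loci the signals of the days were related, with a Spearman rho and a Pearson r of log2(signal + 1) of 0.56 each, given as a description since the loci share their libraries. Of 206 loci at 100 at day 0, 50 were still at 100 at day 4. Elk1 signal at these loci was low on both days, with medians of 6.9 and 9.7 and a highest value of 58.1. Its median log2 difference was 1.16, in the opposite direction to Gli2. At such low signals its size depends on the pseudocount, and with a pseudocount of 5 it was 0.67.

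The loci lay within 1 kb of 270 of the 408 annotated nuclear tRNA genes, and 207 of them overlapped one. Many tRNA genes are near-identical copies, so how reads were divided among copies is uncertain, and a value may hold reads of another gene of the same family.

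Of the 4 largest decreases among loci listed elsewhere, n-TRtct2, an arginine tRNA gene (chr3:122292948-122293032), came first. Its locus held 314.1 (day 0), 15 (day 4), 53.9 (day 8), 184.5 (ciNSLCs) and 136.3 (pri-NPC). The log2 difference was -4.30 and the ratio interval 0.01 to 0.19. At n-TSgct5, a serine tRNA gene on chromosome 13, the signals were 317.7, 22.6, 26.6, 140.2 and 100.4, a log2 difference of -3.76. At n-TItat14, printed above, the log2 difference was -3.36 and the interval 0.03 to 0.25. At n-TYgta7, a tyrosine tRNA gene, the signals were 469.4, 52.2, 106.8, 230.1 and 112.1, a log2 difference of -3.14. In each of the 4 the day 4 value lay below ciNSLCs and pri-NPC as well as below day 0.

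The 3 kept tRNA gene loci with the highest summed signal were high in every Gli2 library. At n-TPcgg3, a proline tRNA gene on chromosome 11, the signals were 500.4 (day 0), 255.7 (day 4), 224.8 (day 8), 416 (ciNSLCs) and 355.3 (pri-NPC). Its log2 difference of -0.97 was just under 2-fold, and its interval of 0.31 to 0.82 lay below 1. At n-TLtag1, a leucine tRNA gene, they were 266.4, 157.5, 163.3, 347.8 and 266. At n-TRacg6, an arginine tRNA gene beside Prmt5, they were 258, 150.4, 102.5, 221.2 and 277.1. The intervals of these last loci, 0.31 to 1.15 and 0.3 to 1.1, included 1.

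The other 4 kept loci are named here because the count was small, after their values were seen. They were n-TMcat14 (230.5 to 149.9), n-TKctt16 (191.1 to 118.5), n-TVtac3 (179.2 to 135.3) and a locus 947 bp from n-TLaag4 (99.1 to 67.7). In counted units none of these 4 was lower at day 4. The units were 19 and 20, 16 and 16, 15 and 18, and 8 and 9, so that their lower day 4 signal rests on the value of a unit.

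Grouped by amino acid, every one of the 20 groups had a median log2 difference below -1 as deposited. The lowest medians were those of tryptophan (-2.74, 4 loci), serine (-2.53, 13 loci) and alanine (-2.42, 12 loci). The highest were those of glutamate (-1.36, 9 loci), proline (-1.53, 11 loci) and arginine (-1.83, 18 loci). Within serine the loci ranged from -6.94 to -1.03 and within arginine from -4.30 to -0.77, wider than the distance between the group medians. The median signal of the glutamate loci went from 265.1 to 60.2 and that of the tryptophan loci from 302.2 to 44.9.

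**Figure D3:**
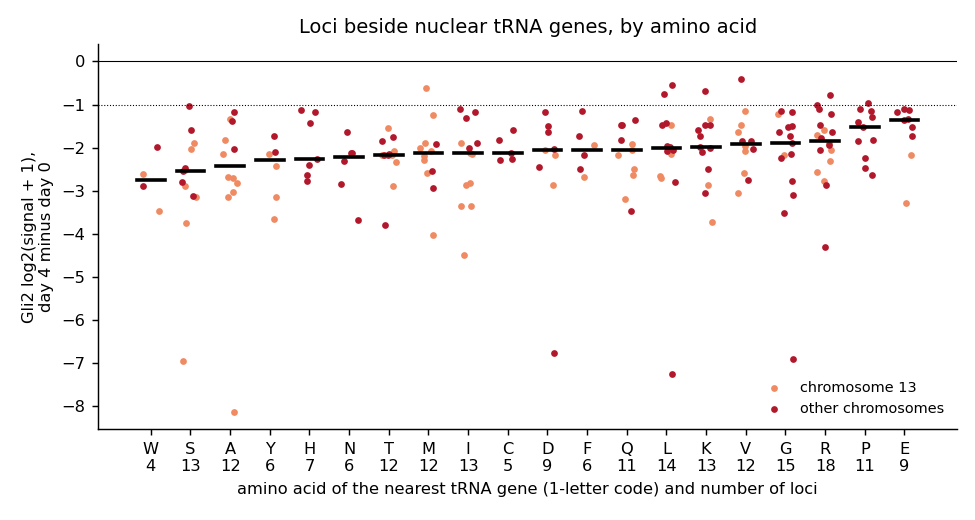
Difference of Gli2 log2(signal + 1), day 4 minus day 0, at the 208 tRNA gene loci, 1 point a locus, grouped by the amino acid of the nearest tRNA gene (1-letter code, number of loci beneath); black bars are medians, the dotted line marks 2-fold and colour marks chromosome 13. All points lie below 0 and the groups overlap, with medians from -2.74 for tryptophan (W) to -1.36 for glutamate (E).

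The plot of tRNA gene loci by amino acid also separates chromosome 13, which carries large tRNA gene clusters. The 81 loci there had a median log2 difference of -2.29, and the 127 on other chromosomes one of -1.86. Among those listed elsewhere the medians were -2.15 and -1.73. Loci with 1 tRNA gene within 1 kb (127 loci, -2.08) and with 2 or more (81 loci, -2.01) had similar medians. Where a protein-coding gene lay within 1 kb the median was -1.73 (50 loci), and where none did it was -2.11 (158 loci).

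Among the Gli2 libraries, day 4 had the lowest tRNA gene median. The medians were 269.9 (day 0), 60.2 (day 4), 72.3 (day 8), 173.9 (ciNSLCs) and 135.6 (pri-NPC). Day 8 was above day 4 at 113 of the 208 loci, ciNSLCs at 183 and pri-NPC at 190. In ciNSLCs 186 of the loci were still below day 0. There were 156 tRNA gene loci at 100 at day 0 and not at day 4. Among them, those that reached 100 numbered 17 (day 8), 91 (ciNSLCs) and 92 (pri-NPC). The listing bounds these numbers. Of the 156, 56 were listed through Gli2 at day 0 alone, so by definition no other library reached 100 there. The remaining 100 had to reach 100 in some other library, and each did so with Gli2 in ciNSLCs, pri-NPC or both. A share of loci that recovered can therefore not be read from these numbers.

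**Figure D4:**
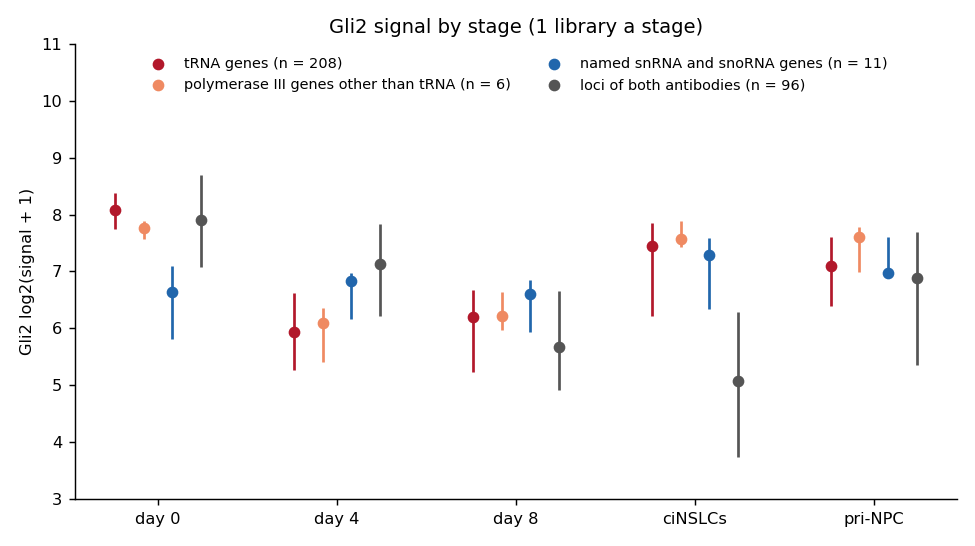
Gli2 log2(signal + 1) in the 5 Gli2 libraries for 4 sets of loci. Points are medians over loci and lines span the quartiles over loci, which are not replicate error. The tRNA gene and other polymerase III gene medians are lowest at day 4, the named snRNA and snoRNA gene median is not, and the loci of both antibodies are lowest in ciNSLCs.

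In the plot of medians by library the loci of both antibodies showed another order. Their median signals were 238.4 (day 0), 139.7 (day 4), 49.95 (day 8), 32.5 (ciNSLCs) and 116.65 (pri-NPC). Whether these differences between libraries exceed the spread between cultures cannot be known from single libraries.

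Among the other small RNA genes, loci beside polymerase III genes were lower at day 4, and loci beside named snRNA and snoRNA genes mostly were not. Of 11 annotated polymerase III genes on a list without tRNA genes, 6 had a locus, and all 6 were lower, 5 of them beyond counting error, where 54.2% and 32.3% of all loci were so. None of 69 further genes named n-R5s, for 5S rRNA, had a locus. Without Rn7s2, which day 0 alone had listed, 5 of 5 were lower and 4 beyond counting error, with a median of -1.39. Their median signal was 216.15 at day 0 and 67.7 at day 4, a median log2 difference of -1.49, which shrank to -0.24 with equal library medians and to -0.72 when scaled on the loci of both antibodies. The 11 named snRNA and snoRNA loci had 1 lower, 7 kept and 3 higher, with medians of 99.1 and 112.3 and a median log2 difference of 0.16. With equal library medians it was 1.4, and scaled on the loci of both antibodies 0.92. This contrast leaves out the 22 loci beside genes without a functional name. Of those 22, 11 were lower, 9 kept and 2 higher, and 8 were lower beyond counting error.

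Rny1 and Rny3 encode Y RNAs, small cytoplasmic RNAs bound by the Ro protein. At Rny1 (chr6:47787805-47788345) the signals were 242.5 (day 0), 22.1 (day 4), 139.3 (day 8), 270.7 (ciNSLCs) and 202.1 (pri-NPC). At Rny3, on the same chromosome nearby, they were 213.7, 90.2, 67.7, 179.2 and 112.1. Rny1 was lower by -3.40 on the log2 scale, with an interval of 0.02 to 0.32. Rny3 was lower by -1.24, which turned to 0.01 with equal library medians.

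Vaultrc5 encodes the RNA of the vault particle. Its locus held 310.6 (day 0), 36.7 (day 4), 79.5 (day 8), 201.1 (ciNSLCs) and 241.9 (pri-NPC), a log2 difference of -3.05. Rn7sk encodes 7SK, the RNA that holds the elongation factor P-TEFb in an inactive complex. Its signals were 218.6, 82.7, 105.2, 248.8 and 224.3, a log2 difference of -1.39, with an interval of 0.16 to 0.86. Both loci were lower at days 4 and 8 than in the 3 other Gli2 libraries.

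At Rmrp, which encodes the RNA of RNase MRP, the signals were 155.3, 75.2, 59.8, 169.5 and 183.8. Its log2 difference was -1.04 with an interval of 0.19 to 1.2 that included 1, and it turned to 0.21 with equal library medians. At Rn7s2, a gene for the RNA of the signal recognition particle, they were 182.7, 60.2, 25.6, 75.2 and 48.2. Rn7s2 was listed through Gli2 at day 0 alone, and it was below its day 0 level in every other Gli2 library.

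Of the spliceosomal and nucleolar RNA genes, Rnu1a1 (U1) held 142 (day 0), 157.9 (day 4), 118 (day 8), 282.7 (ciNSLCs) and 196.9 (pri-NPC). Rnu2-10 (U2) went from 94.3 to 142.4 between the days, Rnu5g (U5) from 99.1 to 120.3 and Rnu11 (U11) from 114.6 to 127.8. None of these 4 differed by 2-fold. For Rnu1a1 the counting interval of the ratio was 0.52 to 2.46, so a 2-fold higher level at day 4 lay within counting error.

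The U3 snoRNA genes were divided. Rnu3b1 held 47.8 (day 0), 111.9 (day 4), 110.4 (day 8), 157.5 (ciNSLCs) and 189.7 (pri-NPC), a log2 difference of 1.21 with an interval of 0.75 to 9.78. Rnu3b4 went from 31 to 75.2. Rnu3b3 (135 to 120.3) and Rnu3a (135 to 112.3) were kept. Rnu3b1 and Rnu3b4 were thus higher by the 2-fold limit, but within counting error.

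Snord37, a box C/D snoRNA gene in Eef2, was the 1 decrease of 2-fold among the named genes, and it was listed through Gli2 at day 0 alone. Its signals were 155.3 (day 0), 15 (day 4), 11.2 (day 8), 12.9 (ciNSLCs) and 0.6 (pri-NPC), with an interval of 0.01 to 0.43 for day 4 against day 0. It was low in every Gli2 library other than day 0. Snord118 (63.3 to 66.3) was kept and Snord13 (15.5 to 45.1) was higher, on 1 and 6 counted units.

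**Figure D5:**
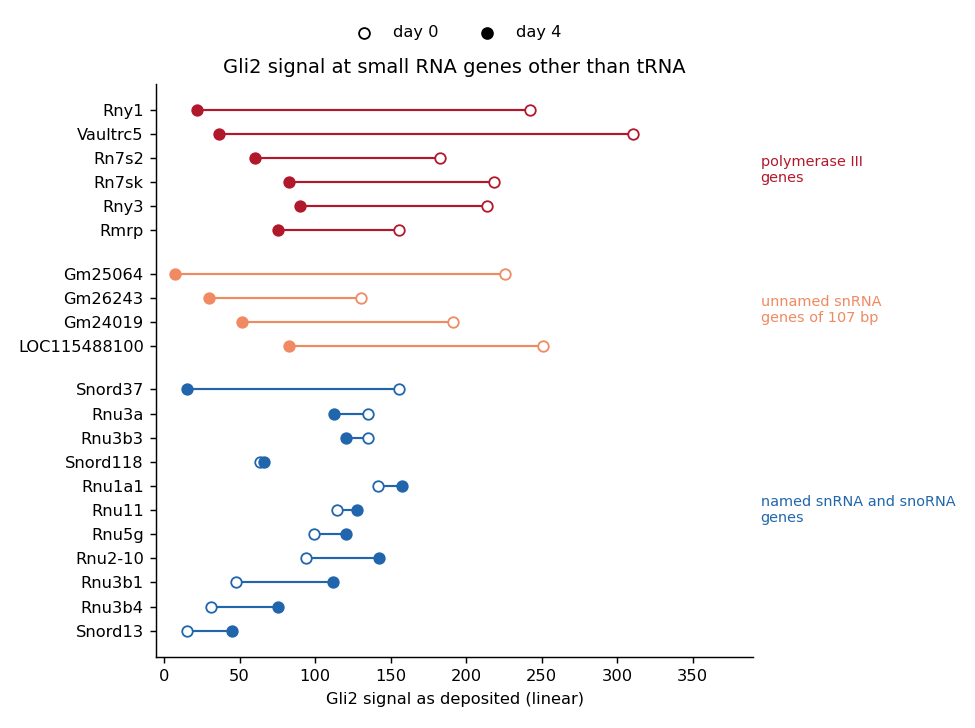
Deposited Gli2 signal (linear scale) at day 0 (open circles) and day 4 (filled circles) for loci beside 6 polymerase III genes other than tRNA genes, 4 unnamed snRNA genes of 107 bp and 11 named snRNA and snoRNA genes. Day 4 lies left of day 0 for all loci of the first 2 groups and, in the third, clearly so only at Snord37; with equal library medians Rmrp and Rny3 would change sides.

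The plot of paired values for small RNA genes also shows 4 annotated snRNA genes of 107 bp without a functional name. All 4 were lower beyond counting error, where 32.3% of all loci were so, with medians of 208.4 and 40.9. Gm25064 went from 225.7 to 7.5, Gm26243 from 130.1 to 30.1, Gm24019 from 191.1 to 51.7 and LOC115488100 from 250.9 to 82.7. The lengths were looked at after the values were seen, and which RNA these genes encode is not given in the annotation. Gm25541, an snRNA gene of 126 bp near Wdr5, went from 370.3 to 74.7, a log2 difference of -2.29.

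Loci beside snRNA genes of other lengths were mixed. Of all loci, 54.2% were lower and 28.7% kept. All 3 loci beside genes of 164 bp, which include Rnu1a1, were kept, among them Gm22068 with 95.6 and 165.4. Of 5 loci beside genes of 116 bp, the length of Rnu5g, 4 were kept, with 167.2 and 120.3 at Gm25313. Of 5 beside genes of 191 bp, 4 were lower and 1 was kept, and 2 of the lower ones were listed through Gli2 at day 0 alone. The 3 miRNA loci had 2 lower and 1 kept.

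Coding gene loci are given by the antibody that listed them, beside shares over all loci of 54.2% lower, 28.7% kept and 17.1% higher. The 43 coding gene loci that reached 100 with both antibodies had 13 lower, 29 kept and 1 higher, and their median Gli2 signal was 205.9 at day 0 and 171.9 at day 4. The 185 that reached 100 with Gli2 alone had 162 lower, 17 kept and 6 higher, with medians of 107.5 and 15. Of these 185, 158 were listed through day 0 alone, so their starting values are high by selection. The 17 listed elsewhere had 8 lower, 5 kept and 4 higher, with a median log2 difference of -0.65 against -0.54 for the 43 loci of both antibodies. The 310 that reached 100 with Elk1 alone had medians of 14.85 and 15, about 1 to 2 counted units.

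Of the 4 largest decreases at coding genes, that in Smo is given with the Hedgehog genes. In E030030I06Rik (chr10:22142565-22143165) the signals were 415.1 (day 0), 58.8 (day 4), 24.4 (day 8), 17.3 (ciNSLCs) and 118.5 (pri-NPC), a log2 difference of -2.80. In Ugt1a10, a glucuronosyltransferase gene, they were 145.6, 31.3, 50, 52.1 and 44.3. In Kctd16, which encodes an auxiliary subunit of GABA-B receptors, they were 278.5, 73.1, 5.3, 2.3 and 110.7. Elk1 at the Kctd16 locus was 22.5 at day 0 and 233.4 at day 4, so the antibodies differed in opposite directions there.

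Kept coding gene loci were led by Sfi1, which encodes a centrosomal protein, and Chl1, which encodes a neural cell adhesion molecule. The 21 loci in or within 5 kb of Sfi1 had 2 lower, 18 kept and 1 higher, where 28.7% of all loci were kept. Their medians were 208.9 and 177.3 and their median log2 difference was -0.26. The highest 2 held 519.1 and 311.1, and 410.3 and 257.2, at days 0 and 4. Their counting intervals were 0.38 to 0.94 and 0.38 to 1.04. One Sfi1 locus was the only increase of 2-fold at a coding gene that reached 100 on either day and was listed elsewhere, with 50 at day 0 and 135.2 at day 4, and its interval of 0.93 to 11.51 included 1. At Chl1 the Gli2 signals were 480.8 (day 0), 344.2 (day 4), 19.4 (day 8), 16.6 (ciNSLCs) and 413.1 (pri-NPC). Elk1 at Chl1 was 0 at day 0, 458.7 at day 4 and 749.7 in pri-NPC. At the highest 2 Sfi1 loci Elk1 was 520.5 and 441.4 at day 4. Whether such signal with both antibodies marks binding at these genes was not tested.

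Intergenic loci were grouped likewise, and the shares over all loci are again 54.2% lower and 28.7% kept. The 52 that reached 100 with both antibodies had 27 lower, 22 kept and 3 higher, with medians of 256.95 and 134.45. The 168 of Gli2 alone had 149 lower, and 138 of the 168 were listed through day 0 alone. The 27 listed elsewhere had 13 lower, 10 kept and 4 higher, with a median log2 difference of -0.93 against -1.06 for the 52 loci of both antibodies. The 568 of Elk1 alone had medians of 11.9 and 7.5.

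The strongest locus of the comparison was intergenic, at chr2:98666085-98667465. It held 6670.2 (day 0), 3549.5 (day 4), 745.5 (day 8), 779.4 (ciNSLCs) and 4586.8 (pri-NPC). Its log2 difference was -0.91. The interval of 0.47 to 0.6 lay below 1, but the locus counted as kept because the difference was under 2-fold. At chr17:39842845-39848965 the signals were 887.8 and 662.7, and at chr9:3026465-3027985 they were 672.3 and 381.1. No protein-coding gene lay within 50 kb of these 3 kept loci. Elk1 was high there at day 4 as well. It went from 55.7 (day 0) to 6966.8 (day 4) on chromosome 2, from 209.2 to 622.7 on chromosome 17 and from 24 to 676 on chromosome 9. Whether such signal with both antibodies marks binding was not tested.

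Among intergenic decreases, a locus 20956 bp from Ly6c2 held 1295.9 (day 0), 162.2 (day 4), 29.1 (day 8), 48.9 (ciNSLCs) and 313.8 (pri-NPC), a log2 difference of -2.99. A locus 36827 bp from Scaf8 went from 144.3 to 14.6, one 8601 bp from Zfp982 from 106.2 to 14.1 and one 18100 bp from Klrb1c from 225.7 to 37.6. The Klrb1c locus held 182.9 in ciNSLCs, where the other 3 were low, and 124.5 in pri-NPC. The 1 named increase, 789045 bp from the nearest coding gene Ddx18, went from 60.7 to 134.9, with an interval of 0.81 to 7.81.

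Malat1, a nuclear long non-coding RNA gene, fell in the intergenic type because it is neither a coding nor a small RNA gene. Its locus (chr19:5802425-5802845) held 97.8 (day 0), 195.5 (day 4), 68.3 (day 8), 128.9 (ciNSLCs) and 141.5 (pri-NPC). Day 4 was the highest of the 5 Gli2 libraries there. The log2 difference was 0.99, just below the limit, and the interval of 0.9 to 5.23 included 1.

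Loci near Hedgehog pathway genes were few. All 72 genes of a list of pathway components and target genes were found in the annotation, and 5 of them, Smo, Gpc5, Sox2, Nes and Pax6, were the nearest coding gene within 50 kb of a locus, 6 loci in all. Of the 6, 4 were lower, 1 kept and 1 higher, 3 of these 4 beyond counting error, where 54.2% and 32.3% of all loci were so. Gli1, Ptch1 and Hhip, the usual readouts of the pathway, had no locus. Over the 4 listed elsewhere, 2 were lower, 1 kept and 1 higher.

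In Smo, the signal transducer that Hh-Ag1.5 activates, Gli2 was 123 (day 0), 29.6 (day 4), 3.7 (day 8), 0 (ciNSLCs) and 14.3 (pri-NPC). The log2 difference was -2.02, with an interval of 0.06 to 0.87 from 10 and 4 counted units. Elk1 at the same locus was 26 at day 0 and 108.3 at day 4. Day 0 was thus the one Gli2 library with a high value at Smo, and day 4 the one with the highest Elk1 value.

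At Sox2, a gene of neural stem cells, Gli2 was 35.8 (day 0), 37.6 (day 4), 21.4 (day 8), 26.3 (ciNSLCs) and 24.8 (pri-NPC), with an interval of 0.2 to 6.76. At Nes, which encodes the neural progenitor protein nestin, it was 19, 7.5, 12.8, 128.2 and 142.8, so the locus was listed for the ciNSLCs and pri-NPC values. The locus 38631 bp from Pax6 and the first Gpc5 locus both went from 107.5 to 15. They were listed through Gli2 at day 0 alone, at the smallest listed number of units. The second Gpc5 locus held 0 and 15.

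At the same loci and days Elk1 differed in the other direction. Its median over all loci was 10.3 at day 0 and 14.8 at day 4, a median log2 difference of 0.65, against -1.22 for Gli2. By type the Elk1 median log2 difference was 1.16 at tRNA gene, 0.73 at other small RNA gene, 0.63 at coding gene and 0.59 at intergenic loci. With equal library medians these were 0.78, 0.24, 0.14 and 0.09. With a pseudocount of 5 they were 0.67, 0.44, 0.51 and 0.42. At the 96 loci of both antibodies, Gli2 was lower at 41, kept at 51 and higher at 4, where 54.2% of all loci were lower and 28.7% kept. Its median signal at these 96 loci went from 238.4 to 139.7. The median log2 difference of -0.83 is smaller than the shift between the library medians. There Elk1 went from 52.65 to 187.3 and was higher at 58. The listing favours this direction, since 283 loci of the table reached 100 with Elk1 at day 4 and 32 at day 0. Of the 122 loci where Gli2 reached 100 on both days, 59 also reached 100 with Elk1 on one of these days, and these included 40 of the 56 kept loci.

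The 884 loci that reached 100 with Elk1 alone carried little Gli2 signal. Their median counted units were 1 at day 0 and 2 at day 4, and 699 of them had at most 3 units on both days. They gave 252 of the 270 loci that were higher by 2-fold, but only 4 of the 9 that were higher beyond counting error. A 2-fold call at such loci rests on a change of a few units.

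Of the 9 gains beyond counting error, 5 were at coding genes and 4 intergenic, and 5 of the 9 lay on chromosome 1. In Gm7592 there were 2 loci, with 0 at day 0 and 73.4 at day 4, and with 29.7 and 112.3. In Sp110, which encodes a nuclear body protein, the signals were 29.7 (day 0), 110.5 (day 4), 62.9 (day 8), 30 (ciNSLCs) and 58.7 (pri-NPC). A locus in Gm38510 went from 0.9 to 58.3 and one in Mroh2a from 15.5 to 90.2. Sp110 and Gm7592 belong to a region of related gene copies, so reads there may be divided among copies. The Sp110 locus and the second of the Gm7592 loci were listed through Gli2 at day 4 alone and are high there by selection.

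The other 4 gains were far from coding genes. A locus 262645 bp from Mc2r went from 7.1 at day 0 to 107.8 at day 4, and it held 43.5 (day 8), 38.7 (ciNSLCs) and 64.5 (pri-NPC). Its interval was 1.34 to 372.83, and it too was listed through day 4 alone. A locus nearest to Lrp1b went from 7.1 to 81.8. On chromosome Y, loci nearest to LOC665918 and Gm20812 went from 0 to 68.4 and from 2.2 to 86.6, and both were highest in pri-NPC, at 346.1 and 156.4. The sex of the cells is not given.

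The single mitochondrial locus, over COX3, held 90.7 with Gli2 at day 0 and 0 in the 4 other Gli2 libraries. Elk1 there was 209.6 at day 0 and 0 at day 4. Both antibodies thus gave mitochondrial signal at day 0 and not at day 4. Its part in the other differences between these days was not tested.

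Few loci lay over annotated promoters. Promoter windows of RefSeq, from 250 bases before to 50 after a gene start, overlapped 47 loci through 53 windows, and 38 of the 47 loci were lower, where 54.2% of all loci were. They were 26 tRNA gene loci, of which 25 were lower, 3 other small RNA gene loci, all lower, 16 coding gene loci, of which 9 were lower, and 2 intergenic loci, of which 1 was lower. Among the coding gene loci, that over the promoter of Hnrnpab, an RNA-binding protein gene, went from 131.4 to 7.5. That of H2bc18, a histone gene, went from 83.6 to 7.5, and that of Eef2k, the kinase of elongation factor eEF2, from 135 to 44.2. The Hnrnpab and Eef2k loci were listed through Gli2 at day 0 alone. The promoter loci of Polq (27.4 to 67.7) and H1f2 (39.4 to 44.7) were not lower.

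The B box letters GTTCNANNC, searched on both strands, were in 11 of the 29 windows over tRNA gene loci (37.931%). They were in 2 of the 19 over coding gene loci (10.526%) and in 3063 of all 32851 windows (9.324%). The windows lie at starts of neighbouring genes and need not hold the tRNA gene. Some repeat, since Rnase4 and Ang share one and Agbl5 has several. The share is therefore not that of tRNA genes with a B box. The Gli motif TGGGTGGTC, searched on both strands as well, was in none of the 53 windows over loci and in 83 of all windows (0.253%). A match describes letters in these windows and not a bound site, and with so rare a motif its lack in 53 windows carries no weight.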

How the data were processed

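Gli2 and Elk1 chromatin immunoprecipitation libraries of mouse cells were sequenced for 5 groups of cells, with 1 library each. Per the submitters' processing notes, the tools were Bowtie2, SAMtools, FastQC and CASAVA 1.8.4, and the build was mm10. How loci were called and how signal was measured and scaled is not stated in these sources. The deposited table gives the authors' signal, never negative, of each library at each locus, and the names of its 10 columns matched the sample labels.

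Differences are log2(signal + 1) at day 4 minus day 0, which understates differences of low signals. Counted units came from a grid of steps fitted below a signal of 60 (tolerance 0.06), on which 84.55% of the low signals at day 0 and 84.7% at day 4 lay. The authors do not state such units. The ratio interval ignores the background subtraction, and the scripts were tested on simulated data. Genes and sequences came from RefSeq tables of GRCm38.p6, which give no strand or exons for genes, so exon, intron and UTR were not assigned. Coordinates of loci are as deposited, and whether they count from 0 or 1 is not stated.

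Loci were named by a rule. For each type, among loci at 100 in another library and at 100 with Gli2 at day 0 or day 4, it took the 4 largest decreases, up to 4 increases of at least 2-fold and the 3 kept loci with the highest summed signal. It added every locus of the Hedgehog list and of the polymerase III list, up to 3 amino acids at each end, and gains that reached 100 at day 4. The other loci, among them gains beyond counting error, sequences, promoters, Malat1 and the snRNA genes grouped by length, were chosen after their values were seen. The loci, lists and rule were chosen with earlier results of these data known. Alternatives were 2 other scalings, other pseudocounts, fold limits, distances and listing limits, a filter on low signals and the counting interval. Python 3.11.15, numpy 2.4.6, pandas 2.3.3, scipy 1.17.1 and matplotlib 3.10.9 were used.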

Additional observations from a re-analysis of the deposited data

How the results depend on the processing

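No paired analysis was possible because each day has 1 library. Depth limits single loci, since a signal of 100 rests on 9 units at day 0 and 14 at day 4. Of the summary values under the alternatives tried, 117 counted as the same and 46 as moved. A count was the same within a set fold of the reported count. A median was the same within a binomial interval of the reported median over its loci, which is wide for small sets. The other small RNA gene median thus counted as the same at 0.03 instead of -0.73, scaled on the loci of both antibodies. With equal library medians over all loci, which shift the differences by construction, 485 of all loci were lower and 507 higher. Of those listed elsewhere, whose own medians were 19 and 15, 226 were lower and 497 higher. By type, 77 tRNA gene loci were then lower, 8 other small RNA gene loci lower and 16 higher, 173 coding gene loci lower and 197 higher, and 226 intergenic loci lower and 294 higher. The median log2 differences became -0.82 at tRNA gene, 0.5 at other small RNA gene, 0.03 at coding gene and 0.18 at intergenic loci, -0.24 for the polymerase III list and 1.4 for the named snRNA and snoRNA genes. For Elk1 they became 0.14 at coding gene and 0.09 at intergenic loci, where a pseudocount of 5 gave 0.42. Rmrp and Rny3 turned to 0.21 and 0.01. Scaling on the loci of both antibodies gave -1.29 at tRNA gene, -0.23 at coding gene and -0.02 at intergenic loci, and -0.72 for the polymerase III list. Counting only loci beyond counting error left 510 lower and 9 higher of all loci, 206 and 6 of those listed elsewhere, 151 and 5 coding gene loci, 149 and 4 intergenic loci, and 0 higher other small RNA gene loci. A 3-fold limit left 1 of the latter higher, and overlap in place of 1 kb left 3. Among loci listed elsewhere, 172 of 242 (71.1%) were lower and 7 (2.89%) higher with a limit of 150, and 204 of 288 (70.8%) and 13 (4.51%) where another Gli2 library had to list them. Both shares of lower loci are above the 41.8% at a limit of 100, under which most loci were those of Elk1 alone. The tRNA gene loci made up 123 of the 242 and 152 of the 288, against 152 of the 1207 at a limit of 100. Restricted to loci listed elsewhere, 111 coding gene and 231 intergenic loci were lower, with medians of -0.04 and -0.28, and the tRNA gene median was -1.89. Without chromosome 13 it was -1.86. With 1 value per gene the coding gene median was -1.28. Apart from scaling and listing, whose construction fixes the shift, the cause was not tested.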
